A study of Mus musculus with 6 samples.

Results

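Chd4 was knocked down in mouse embryonic stem cells with a short hairpin RNA (shRNA). The line was compared after 4 days of neural differentiation (day 4) with itself as stem cells (day 0). Each side is 1 Mouse Gene 2.0 ST array, so 2 of the 6 arrays of the study are concerned. Every probe set with exactly 1 gene symbol was used, which is 23521 of 34351 and stands for 22180 genes. Stem cells grew on gelatin in medium with serum and leukemia inhibitory factor (LIF), and differentiating cells were re-aggregated in plates of low adhesion in medium with KSR. All cells carried a lentivirus, with the Chd4 shRNA, an Mbd3 shRNA or a control shRNA. The Mbd3 and control lines have the same 2 days. No source used here states whether an array holds 1 culture or a pool, whether infected cells were selected, or how long after infection they were taken. With 1 array a side, no difference below has a replicate check or a test, and "higher" and "lower" describe these arrays.

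CHD4 is an ATP-driven chromatin remodeler. It is the motor of NuRD, a complex that couples nucleosome remodeling to histone deacetylases and that also holds MBD3. In stem cells NuRD tunes pluripotency genes and silences genes of other lineages. When LIF is withdrawn, naive stem cells normally pass through a primed state that resembles the epiblast. In floating aggregates with little inductive signal many of them go on to a neural fate.

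The targeted gene came first. In Chd4-knockdown cells the intensity of Chd4 was 727 at day 4 and 290 at day 0. Mbd3-knockdown cells had 942 at day 4 and 896 at day 0, and control cells had 1021 at day 4 and 973 at day 0. Chd4 was thus at 71.3% of control at day 4 and 29.8% at day 0. The day comparison in this line is also a comparison of a weaker with a stronger knockdown. How far the genes below follow the day and how far the Chd4 level cannot be told apart. Of the other 15 NuRD subunits and paralogs, 0 passed 2-fold, near the 2.86% of all genes compared as defined below. Mbd3 stood at 204 on both days. The largest of these differences was that of Chd3, a paralog of Chd4, with 149 at day 4 and 236 at day 0 (log2 difference -0.66).

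Cell type markers were read next. The 6 stem cell markers (Pou5f1, Nanog, Sox2, Zfp42, Esrrb and Klf4) reached the floor defined below on all 6 arrays, that of control cells at day 4 included. Their summed intensity in Chd4-knockdown cells was 4396 at day 4 and 6544 at day 0. It was 4487 at day 4 and 6231 at day 0 in Mbd3-knockdown cells, and 2710 at day 4 and 6567 at day 0 in control cells. Klf4 and Esrrb were the 2 of these 6 at least 2-fold lower at day 4 in the Chd4 line, where 1.16% of all genes compared were. The 5 markers of neural progenitors (Sox1, Pax6, Nes, Fabp7 and Hes5) summed to 433 at day 4 and 224 at day 0. In the Chd4 line 1 of these 5 was under the floor at day 4 and 3 at day 0. Mbd3-knockdown cells had a sum of 686 at day 4 and 250 at day 0, and control cells had 3357 at day 4 and 284 at day 0. Markers of neurons (575 at day 4 and 699 at day 0), endoderm (213 at day 4 and 205 at day 0), trophectoderm (190 at day 4 and 198 at day 0) and fibroblasts (243 at day 4 and 328 at day 0) gave 0 genes past 2-fold, as did 3 of 4 mesoderm markers measured (113 at day 4 and 124 at day 0). At day 4 and day 0, 1 and 1 of the neuron markers and 1 and 1 of the endoderm markers were under the floor. For trophectoderm these counts were 2 and 1, for fibroblasts 2 and 2 and for mesoderm 2 and 1. The 3 blood markers were under the floor on both days. Over all genes compared 2.86% passed 2-fold, so 0 in panels this small is near the background. The neural sum was thus higher at day 4 in the Chd4 line, but its day 4 value was far below that of the control line. Sox1 and Fabp7 were the 2 of its 5 markers at least 2-fold higher, where 1.7% of all genes compared were. Both were under the floor at day 0. The log2 differences of Pax6, Nes and Hes5 were only 0.12, 0.29 and 0.20, so the higher sum is not shared by the whole panel.

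The median intensity over all probe sets was 40.7 at day 4 and 41.4 at day 0, and 39.6 to 41.4 over the 6 arrays. The highest median, 41.4, is used as a floor. Where the dimmer array lies under it, a fold is given as "at least", the brighter intensity over 41.4. A gene was compared where its brighter array reached that array's own median, which left 13406 genes. Of the 13406 genes, 228 (1.7%) were higher at day 4 by 2-fold or more and 155 (1.16%) lower by 2-fold or more, together 383 (2.86%). Lists are counted over their measured genes, and a gene not compared was not counted as past 2-fold. Lists and members were chosen with earlier results of these data known, so a list count above the share of all genes is not independent evidence. The median log2 difference over all genes compared was -0.01, and the median size of a difference was 0.197. Both arrays reached the floor for 175 of the higher and 138 of the lower genes. Of the other 53 and 17, 30 and 8 passed 2-fold when set against the floor.

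**Figure D1:**
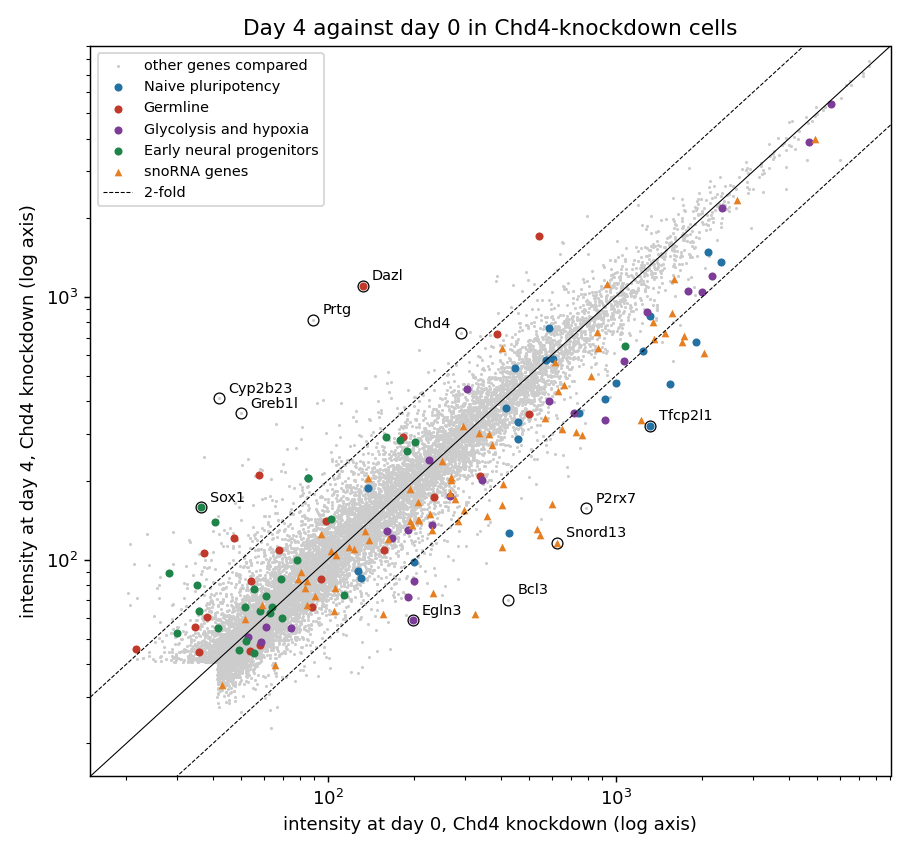
Intensity at day 4 (vertical) against day 0 (horizontal) in Chd4-knockdown cells, both on log axes, for the 13406 genes compared; 1 point is 1 gene, and dashed lines mark 2-fold. Naive pluripotency genes, glycolysis and hypoxia genes and snoRNA genes lie mostly below the diagonal, while Dazl, with 1104 at day 4 and 132 at day 0, and Prtg, with 818 at day 4 and 89.3 at day 0, stand far above it.

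Genes of the naive stem cell state were mostly lower at day 4. Tfcp2l1, a transcription factor of the naive network, had an intensity of 323 at day 4 and 1312 at day 0 in Chd4-knockdown cells. Mbd3-knockdown cells had 388 at day 4 and 1414 at day 0, and control cells had 85.7 at day 4 and 904 at day 0. It was lower at day 4 in each line, 4.06-fold in the Chd4 line. Klf4, which holds cells in the naive state downstream of LIF, had 126 at day 4 and 425 at day 0, and Klf5, of the same family, had 466 at day 4 and 1548 at day 0, with log2 differences of -1.75 and -1.73. Nr0b1, a nuclear receptor that partners OCT4, had 672 at day 4 and 1903 at day 0, and the T-box factor gene Tbx3 had 409 at day 4 and 916 at day 0. Jam2, Tcl1, Esrrb and Klf2 completed the 9 of 24 naive genes at least 2-fold lower, where 1.16% of all genes compared were; Klf2 was just inside, at 2.01-fold. Single genes of the list went other ways: Gbx2 was higher, with 205 at day 4 against 85.3 at day 0 (1.26), although its other probe set gave 0.37. Dnmt3l, a cofactor of DNA methylation, had 573 at day 4 and 572 at day 0. In all, 18 of 24 were lower, with a list median of -0.62 against -0.01 for all genes compared. The median was -0.84 in the Mbd3 line and -1.86 in the control line, where 21 were at least 2-fold lower. In the control line 4.7% of all genes compared were. In a bulk sample, fewer cells of a type and less RNA per cell cannot be told apart.

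The core pluripotency genes, shared by naive and primed cells, had smaller differences. Pou5f1, which encodes OCT4, had an intensity of 152 at day 4 and 163 at day 0, Nanog 1534 at day 4 and 1869 at day 0. Sox2 had 1131 at day 4 and 1575 at day 0. These are log2 differences of -0.10, -0.28 and -0.48, of which the first is smaller than the median size over all genes. Of 18 core genes measured, 10 were higher, with a median of 0.04, and 0 passed 2-fold in either direction. Over all genes compared 2.86% passed it, so 0 of 18 is near the background. The 2 furthest apart were L1td1, an RNA-binding protein gene of pluripotent cells, with 533 at day 4 and 921 at day 0 (-0.79) and Lin28b, a blocker of let-7 maturation, with 72.4 at day 4 against 39.2 at day 0 (at least 1.75-fold). In control cells Pou5f1 had 77.6 at day 4 and 192 at day 0 and Nanog 768 at day 4 and 2305 at day 0. There 11 core genes were at least 2-fold lower, beside 4.7% of all genes compared, and the median was -1.48. Dppa2 and Dppa4, which prime developmental promoters, show the gap between the lines. In Chd4-knockdown cells Dppa2 had 2143 at day 4 and 1899 at day 0, while in control cells it had 268 at day 4 and 2214 at day 0. Dppa4 had 813 at day 4 and 552 at day 0 in Chd4-knockdown cells, while in control cells it had 148 at day 4 and 905 at day 0.

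Known targets of LIF signaling were mostly lower. Bcl3, an IκB-family coactivator induced by STAT3, had an intensity of 70.4 at day 4 and 424 at day 0, which made it the lowest gene with both arrays at or above the floor (6.02-fold). Mbd3-knockdown cells had 74.8 at day 4 and 366 at day 0, and control cells had 67.8 at day 4 and 528 at day 0. The day 4 levels of the 3 lines thus lay within 1.5-fold of each other. Stat3, the transducer itself, had 225 at day 4 and 678 at day 0. Its feedback inhibitor gene Socs3 had 70.1 at day 4 and 154 at day 0, and the immediate early gene Fos had 44.1 at day 4 and 97.2 at day 0. A different probe set of Socs3 gave -0.68 in place of -1.13. Gadd45g, a growth arrest gene of the same list, was higher, with 147 at day 4 against 41.5 at day 0 (1.83). Over the 13 genes of the list, 4 were at least 2-fold lower and 1 higher, beside 1.16% lower and 1.7% higher of all genes compared, with a median of -0.71, against -0.49 in the Mbd3 line and -0.62 in the control line.

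Genes of the primed epiblast were mostly higher, 16 of 20. Lef1, a WNT effector, had an intensity of 217 at day 4 and 69.1 at day 0 (1.65), and of the de novo DNA methyltransferase genes Dnmt3b had 1618 at day 4 and 650 at day 0 (1.31) and Dnmt3a 342 at day 4 and 139 at day 0 (1.30). The kinase gene Pim2 (1.22), Sox4 (1.14, and 0.43 by its other probe set) and Pou3f1, which encodes the epiblast factor OCT6 (1.10), completed the 6 of 20 genes at least 2-fold higher, where 1.7% of all genes compared were. In the other direction 0 of the 20 passed 2-fold. Fgf5, the classical marker of this state, was 68.1 at day 4 and 42.8 at day 0 (0.67), and Otx2 was 113 at day 4 and 118 at day 0. The list median was 0.47, against 0.73 in the Mbd3 line and 0.27 in the control line. Dnmt3b had opposite directions in the Chd4 and control lines. Mbd3-knockdown cells had 1353 at day 4 and 485 at day 0, and control cells had 591 at day 4 and 827 at day 0. In the list of DNA methylation and demethylation genes, Dnmt3a and Dnmt3b were the 2 of 10 past 2-fold, and the dioxygenase gene Tet1 had 1190 at day 4 against 1822 at day 0 (-0.61).

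**Figure D2:**
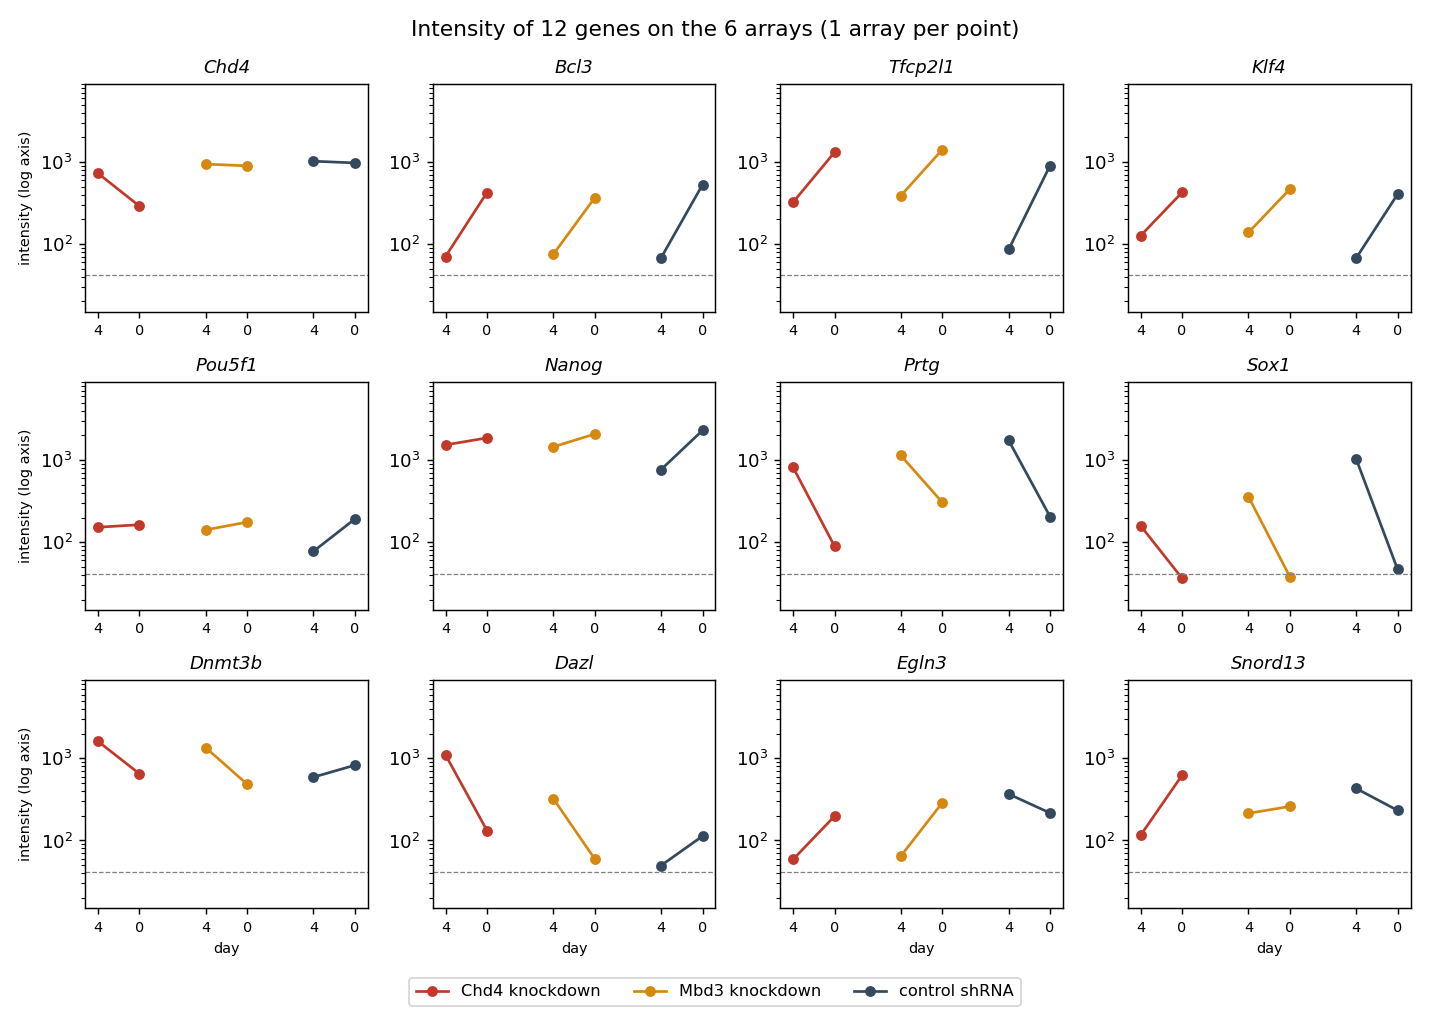
Intensity (log axis) of 12 genes at day 4 and day 0 in the Chd4-knockdown, Mbd3-knockdown and control lines; 1 point is 1 array and the dashed line is the floor of 41.4. Bcl3, Tfcp2l1 and Klf4 are lower at day 4 in all 3 lines, Sox1 and Prtg are higher in all 3, and Dazl, Dnmt3b, Egln3 and Snord13 run in opposite directions in the Chd4 and control lines.

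Of 39 early neural genes measured, 27 were compared. At least 2-fold higher were 5 of these, where 1.7% of all genes compared were. The largest such difference was that of Sox1, the earliest SOX factor of the neural plate, with an intensity of 159 at day 4 and 36.4 at day 0 in Chd4-knockdown cells (at least 3.83-fold). Mbd3-knockdown cells had 360 at day 4 and 37.9 at day 0, and control cells had 1033 at day 4 and 46.5 at day 0. At day 4 the order of the lines was therefore Chd4, Mbd3 and control, from low to high. Meis2, a homeobox cofactor, had 139 at day 4 and 40.5 at day 0 (at least 3.35-fold), and Fabp7, a lipid carrier of radial glia, had 89.0 at day 4 and 28.1 at day 0 (at least 2.15-fold). For the growth factor gene Ptn, with 79.9 at day 4 and 35.3 at day 0, the bound was 1.93-fold. Gbx2 is the last of the 5, and 0 of the 39 were at least 2-fold lower. Pax6 (63.5 at day 4 and 58.5 at day 0), Nes (84.7 at day 4 and 69.1 at day 0) and Sox9 (62.8 at day 4 and 62.9 at day 0) were near their day 0 level, and Vim, an intermediate filament gene, was 650 at day 4 and 1078 at day 0 (-0.73).

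Over the 39 early neural genes 27 were higher, and the median was 0.23, or 0.04 with intensities under the floor set to it; 12 genes were under the floor on both days. The median was 0.65 in the Mbd3 line, with 12 genes at least 2-fold higher, and 2.09 in the control line, with 29. Of all genes compared, 1.6% were at least 2-fold higher in the Mbd3 line and 8.13% in the control line. Postmitotic neuron genes gave 0 of 27 at least 2-fold higher and 1 lower, Stmn3, a tubulin-binding stathmin gene, with 85.4 at day 4 and 187 at day 0. Of all genes compared in the Chd4 line, 1.7% were at least 2-fold higher and 1.16% lower. Of the 27 neuron genes, 20 were lower at day 4, among them Tubb3 with 378 at day 4 and 448 at day 0 and the growth cone gene Gap43 with 45.0 at day 4 and 73.8 at day 0. Their list median was -0.13, or -0.03 with intensities under the floor set to it. On both days 10 of the 27 were under the floor. The list median was 0.13 in the Mbd3 line and 1.25 in the control line. Genes of the Notch pathway, which holds neural progenitors back from becoming neurons, had 0 of 20 past 2-fold, near the 2.86% of all genes compared. The Notch list median was 0.01, against 0.22 in the Mbd3 line and 1.09 in the control line.

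Some of the largest differences outside that list had the same direction in all 3 lines. Prtg, a cell surface receptor of the immunoglobulin family in the early neural tube, had 818 at day 4 and 89.3 at day 0 (9.16-fold) in Chd4-knockdown cells. Mbd3-knockdown cells had 1142 at day 4 and 306 at day 0, and control cells had 1742 at day 4 and 205 at day 0. Greb1l had 361 at day 4 and 50.03 at day 0 in the Chd4 line (7.22-fold). Mbd3-knockdown cells had 592 at day 4 and 60.1 at day 0, and control cells had 732 at day 4 and 45.0 at day 0. For both genes the day 4 array was at least 3-fold above the day 0 array in each line. Neurog3, a bHLH factor of endocrine progenitors, had 129 at day 4 and 39.99 at day 0 (at least 3.11-fold). Mbd3-knockdown cells had 254 at day 4 and 39.6 at day 0, and control cells had 183 at day 4 and 54.4 at day 0. Car4, a membrane carbonic anhydrase gene, had 229 at day 4 and 50.4 at day 0 (4.54-fold).

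Retinoic acid and Hox genes were a mixed list. Stra8, Meis2 and Stra6, a retinol transporter gene with 111 at day 4 and 47.1 at day 0 (1.24), were the 3 of 21 at least 2-fold higher, with 0 lower and a median of 0.07. Of the 21, 12 were compared, and 1.7% of all genes compared were at least 2-fold higher. Hoxb1, the first Hox gene of the hindbrain, was 93.6 at day 4 and 66.1 at day 0. Mbd3-knockdown cells had 158 at day 4 and 45.9 at day 0, and control cells had 530 at day 4 and 53.9 at day 0. Lists of mesoderm (21 genes), definitive endoderm (15), neural crest (15) and 2-cell-like cells (20) had 0 genes past 2-fold, with medians of -0.08, -0.05, -0.03 and 0.03. Of these 4 lists 16, 12, 8 and 10 genes were compared. Over all genes compared 2.86% passed 2-fold, so 0 in lists of this size is near the background. The extraembryonic endoderm list had 2 of 21 higher, the endocytic receptor gene Lrp2 (436 at day 4 and 163 at day 0) and the proteoglycan gene Srgn (113 at day 4 and 44.8 at day 0), and 1 lower, the laminin gene Lama1 (59.6 at day 4 and 129 at day 0), while Gata4 (47.8 at day 4 and 55.5 at day 0) and Sox17 (34.7 at day 4 and 39.4 at day 0) were near or under the floor. Of 18 trophectoderm genes, Esx1 alone passed 2-fold, with 188 at day 4 and 76.5 at day 0, and Cdx2 had 36.2 at day 4 and 48.5 at day 0.

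Several germline genes were higher at day 4. Dazl, an RNA-binding protein that licenses germ cells, had an intensity of 1104 at day 4 and 132 at day 0 in Chd4-knockdown cells (8.35-fold). Mbd3-knockdown cells had 324 at day 4 and 59.6 at day 0, and control cells had 49.5 at day 4 and 113 at day 0. The control line thus ran the other way. Sohlh2, a bHLH factor of early germ cells, had 1697 at day 4 and 543 at day 0 in the Chd4 line (3.12-fold). Mbd3-knockdown cells had 934 at day 4 and 209 at day 0, and control cells had 307 at day 4 and 192 at day 0. Stra8, the switch into meiosis that answers to retinoic acid, had 211 at day 4 and 57.8 at day 0 (3.65-fold). Mbd3-knockdown cells had 117 at day 4 and 34.2 at day 0, and control cells had 39.9 at day 4 and 33.6 at day 0. The meiotic chromosome protein gene Hormad1 had 106 at day 4 and 37.2 at day 0 (at least 2.55-fold), Stk31 had 120 at day 4 and 47.4 at day 0 (2.54-fold). Asz1, a piRNA pathway gene, had 45.8 at day 4 and 21.7 at day 0, which is at least 1.10-fold against the floor.

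These were the 6 of 26 germline genes, 22 of them compared, at least 2-fold higher in the Chd4 line. Of all genes compared 1.7% were, and 0 of the 26 were at least 2-fold lower. Of the 26, 15 were higher, and the median was 0.41, or 0.12 with intensities under the floor set to it. Mbd3-knockdown cells had 3 at least 2-fold higher, 1 at least 2-fold lower and a median of 0.06. Control cells had 1 at least 2-fold higher, 5 at least 2-fold lower and a median of -0.51. Of all genes compared, 1.6% passed 2-fold upward and 1.1% downward in the Mbd3 line. In the control line these shares were 8.13% and 4.7%. Ddx4, the germ cell helicase gene, was 66.1 at day 4 and 88.5 at day 0 in the Chd4 line, and Nanos3, a marker of primordial germ cells, was 47.2 at day 4 and 58.1 at day 0, so members went both ways. Of the genes outside the list, Smc1b, a cohesin subunit of meiosis, had 327 at day 4 and 65.9 at day 0 (4.96-fold). Mbd3-knockdown cells had 122 at day 4 and 44.2 at day 0, and control cells had 75.3 at day 4 and 48.4 at day 0.

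Promoters are shown for germline genes that were higher and hold the E-box CACGTG, a core motif shared by many bHLH factors. RefSeq windows run from 250 bases before to 50 after the gene start (GRCm38.p6), and CACGTG is its own reverse complement. Of 23 germline genes with a window, 10 (43.5%) held CACGTG, against 7.24% of 27025 windows of all genes. The germline windows also held more CpG, with a median of 20 against 7. Hormad1 (2 matches) and Stk31 (1 match) are the 2 of the 6 higher genes with a match, which the capitals mark. Dazl, with the largest difference, had 0 in its window.
Hormad1, chr3:95559427-95559726, plus strand: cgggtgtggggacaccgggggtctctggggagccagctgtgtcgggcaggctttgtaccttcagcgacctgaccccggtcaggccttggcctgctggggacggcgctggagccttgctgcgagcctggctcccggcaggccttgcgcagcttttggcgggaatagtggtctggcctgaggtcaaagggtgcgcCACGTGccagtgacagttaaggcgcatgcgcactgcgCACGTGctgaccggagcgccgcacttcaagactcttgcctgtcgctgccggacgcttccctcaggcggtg
Stk31, chr6:49395289-49395588, plus strand: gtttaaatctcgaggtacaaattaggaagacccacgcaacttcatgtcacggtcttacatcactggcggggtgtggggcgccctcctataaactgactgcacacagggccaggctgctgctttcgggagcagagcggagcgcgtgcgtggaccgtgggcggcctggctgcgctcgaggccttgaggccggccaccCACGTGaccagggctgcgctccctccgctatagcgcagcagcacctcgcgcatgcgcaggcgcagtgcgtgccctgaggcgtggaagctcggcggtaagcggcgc

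Genes of glycolysis and of the response to low oxygen were mostly lower at day 4. Egln3, a prolyl hydroxylase that marks hypoxia-inducible factors for decay and is itself induced by them, had an intensity of 58.9 at day 4 and 198 at day 0 in Chd4-knockdown cells (3.35-fold lower). Mbd3-knockdown cells had 64.6 at day 4 and 289 at day 0, and control cells had 368 at day 4 and 216 at day 0. Both knockdown arrays of day 4 were thus below every other array for this gene. Bnip3, a mitophagy receptor, had 72.4 at day 4 and 190 at day 0 in the Chd4 line. Mbd3-knockdown cells had 81.1 at day 4 and 160 at day 0, and control cells had 341 at day 4 and 146 at day 0. Vegfa, the angiogenic factor, had 83.0 at day 4 and 199 at day 0. Mbd3-knockdown cells had 125 at day 4 and 145 at day 0, and control cells had 354 at day 4 and 129 at day 0. Ero1a, an oxidase of protein folding, had 339 at day 4 and 920 at day 0 (-1.44, and -0.87 by its other probe set). Among enzymes of glycolysis, Pfkl had 363 at day 4 and 716 at day 0 (-0.98), Tpi1 had 568 at day 4 and 1071 at day 0 (-0.92), Pgk1 had 1199 at day 4 and 2162 at day 0 (-0.85) and Gapdh had 5421 at day 4 and 5593 at day 0 (-0.05).

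Of the 28 genes of this list, 25 were lower at day 4 in the Chd4 line, 4 of them at least 2-fold (1.16% of all genes compared), and 0 were at least 2-fold higher; the median was -0.54. The median was -0.37 in the Mbd3 line and 0.43 in the control line, where 5 genes were at least 2-fold higher and 1, Pfkp at -1.20, lower. Of all genes compared in the control line, 8.13% were at least 2-fold higher and 4.7% lower. Pdk1, a pyruvate dehydrogenase kinase gene, was the highest gene of the list in the Chd4 line, with 444 at day 4 and 304 at day 0 (0.55). Outside the list, Ndufa4l2, a hypoxia-induced mitochondrial protein gene, had 42.6 at day 4 and 139 at day 0 (3.27-fold lower). Mbd3-knockdown cells had 40.8 at day 4 and 92.8 at day 0, and control cells had 187 at day 4 and 69.0 at day 0. Bhlhe40, a transcriptional repressor, had 143 at day 4 and 550 at day 0 (3.86-fold lower). Mbd3-knockdown cells had 187 at day 4 and 446 at day 0, and control cells had 578 at day 4 and 472 at day 0. Genes of oxidative phosphorylation had 0 of 21 past 2-fold, beside 2.86% of all genes compared, and a median of -0.02.

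Hypoxia-inducible factors bind the core letters ACGTG or GCGTG, so the promoters of 2 genes that were lower are shown with these letters, on either strand, in capitals. Of 26 genes of the list with a RefSeq window, 21 (80.8%) held ACGTG or GCGTG, against 43.8% of all windows; the list windows had a median of 24 CpG. Among the 4 genes at least 2-fold lower, 3 (Bnip3, Egln3 and Ero1a) held a match. Bnip3 had 5, of which 2 are both strands of CACGTG, and Egln3 had 1. ACGTG is part of CACGTG, so the 2 searches overlap. A match is a string of letters, and these windows say nothing of binding.
Bnip3, chr7:138909457-138909756, minus strand: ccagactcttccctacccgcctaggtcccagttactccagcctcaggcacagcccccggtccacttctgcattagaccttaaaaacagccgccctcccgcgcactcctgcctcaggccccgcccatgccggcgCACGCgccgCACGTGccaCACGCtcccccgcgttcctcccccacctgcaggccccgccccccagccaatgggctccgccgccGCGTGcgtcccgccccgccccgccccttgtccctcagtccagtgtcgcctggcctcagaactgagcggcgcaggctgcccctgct
Egln3, chr12:54203825-54204124, minus strand: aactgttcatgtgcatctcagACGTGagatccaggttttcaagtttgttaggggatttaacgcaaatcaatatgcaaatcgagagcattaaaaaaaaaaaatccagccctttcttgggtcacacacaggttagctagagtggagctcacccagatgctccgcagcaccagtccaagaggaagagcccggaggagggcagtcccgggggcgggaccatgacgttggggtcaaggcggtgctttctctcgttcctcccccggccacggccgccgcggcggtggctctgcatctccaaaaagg

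**Figure D3:**
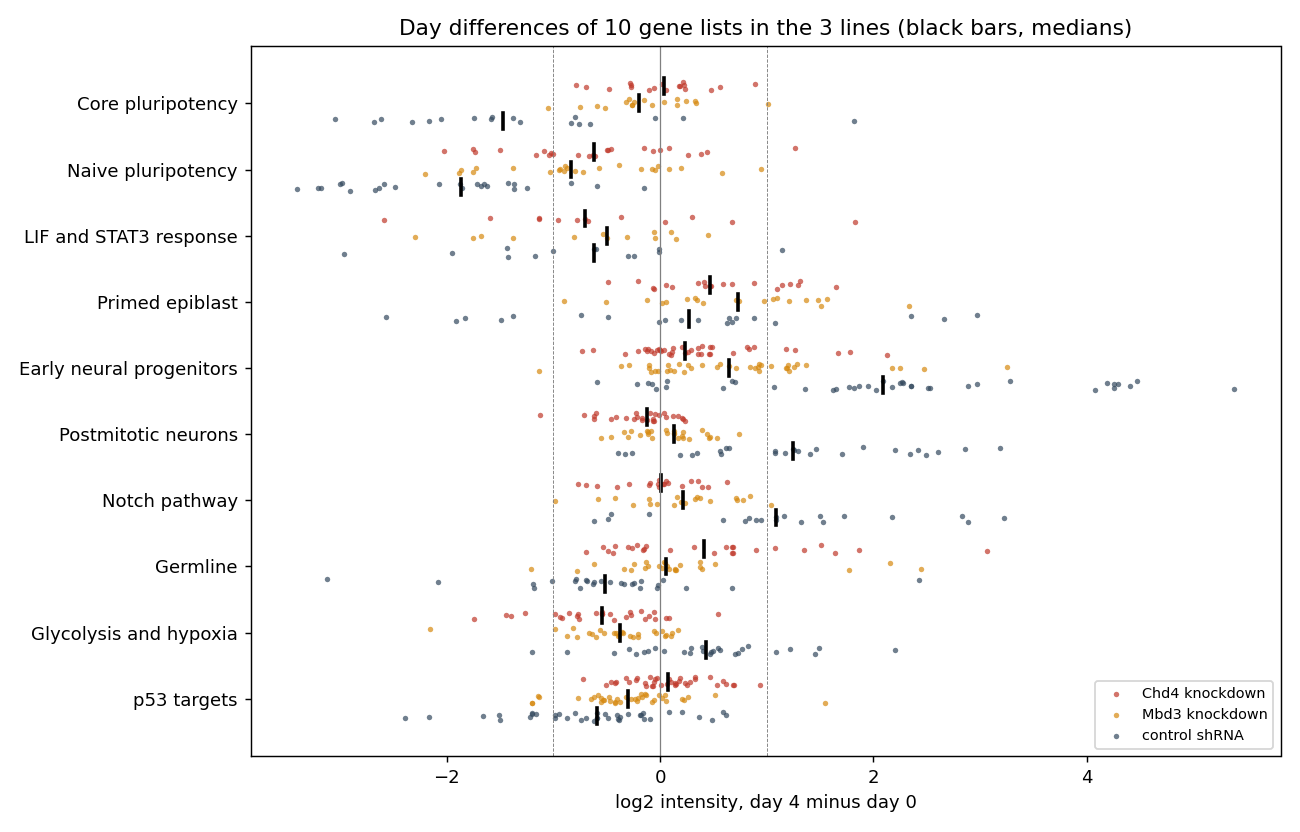
Day difference (log2 intensity, day 4 minus day 0) of each measured gene in 10 lists, for the Chd4-knockdown, Mbd3-knockdown and control lines from top to bottom in each list; 1 point is 1 gene and black bars are medians. The core pluripotency median is 0.04 in the Chd4 line and -1.48 in the control line, and the glycolysis and hypoxia median is -0.54 and 0.43.

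Of 158 microRNA genes compared in the Chd4 line, 12 (7.59%) were at least 2-fold higher, where 1.7% of all genes compared were, and 1, Mir1983, was lower. MicroRNAs are short RNAs that pair with messenger RNAs through their seed, bases 2 to 8, but these probe sets can also read the longer precursor, which the array does not tell apart. The pair Mir18b and Mir363 lies in the X-linked relative of the miR-17 cluster and was looked at after its values were seen. Mir18b had 132 at day 4 and 45.7 at day 0 in the Chd4 line (1.53). Mbd3-knockdown cells had 213 at day 4 and 67.2 at day 0, and control cells had 113 at day 4 and 41.6 at day 0. Mir363 had 113 at day 4 and 43.5 at day 0 in the Chd4 line (1.38). Mbd3-knockdown cells had 195 at day 4 and 64.4 at day 0, and control cells had 94.0 at day 4 and 58.8 at day 0. All 5 measured genes of the cluster were higher at day 4 in each line, with medians of 0.80, 1.18 and 0.60 in the Chd4, Mbd3 and control lines. Mir130a, elsewhere in the genome, was also higher in each line, with 61.2 at day 4 and 25.05 at day 0 in the Chd4 line. The mature sequences from RefSeq are shown, seed in capitals, because their seeds fall into groups. miR-363-3p and miR-92a-3p share theirs, as do miR-20b-5p and miR-106a-5p, whose gene lies in the same cluster and was not analysed here. Among those shown, miR-18b-5p, miR-19b-3p and miR-130a-3p each have their own.
mmu-miR-363-3p: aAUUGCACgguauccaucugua
mmu-miR-92a-3p: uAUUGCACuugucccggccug
mmu-miR-18b-5p: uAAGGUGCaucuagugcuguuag
mmu-miR-20b-5p: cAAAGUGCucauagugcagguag
mmu-miR-106a-5p: cAAAGUGCuaacagugcagguag
mmu-miR-19b-3p: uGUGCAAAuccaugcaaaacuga
mmu-miR-130a-3p: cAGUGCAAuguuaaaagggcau

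Most of the other higher microRNA genes lie inside Sfmbt2, a Polycomb-related gene whose intron holds a large family of repeated microRNAs. Sfmbt2 itself had 1115 at day 4 and 521 at day 0 in Chd4-knockdown cells (1.10). Mbd3-knockdown cells had 1185 at day 4 and 946 at day 0, and control cells had 199 at day 4 and 570 at day 0. The microRNA genes are given first by example. Mir669j had 1248 at day 4 and 486 at day 0 in the Chd4 line. Mbd3-knockdown cells had 1523 at day 4 and 914 at day 0, and control cells had 191 at day 4 and 454 at day 0. Mir466b-2 had 319 at day 4 and 81.6 at day 0 in the Chd4 line. Mbd3-knockdown cells had 370 at day 4 and 167 at day 0, and control cells had 53.4 at day 4 and 72.4 at day 0. Both examples were lower at day 4 in control cells, but the genes of the group were not all so. Of 22 measured microRNA genes inside Sfmbt2, 22 were higher at day 4 in the Chd4 line, 8 of them at least 2-fold, and the median was 0.76. In the Mbd3 line 22 were higher, with a median of 0.49, and in the control line 6, with a median of -0.06. The copies are close in sequence, so their probe sets may share signal and the 22 are not independent. In the Chd4 line 17 of the 22 were compared, and 1.7% of all genes compared were at least 2-fold higher. Of all 158 microRNA genes compared in that line, 79 were higher at day 4. The list of pluripotency and neural microRNA loci gave 0 of 29 past 2-fold, with 11 of the 29 compared. Over all genes compared 2.86% passed it. Mir290a, of the main cluster of mouse stem cells, had 405 at day 4 and 500 at day 0. Mbd3-knockdown cells had 313 at day 4 and 544 at day 0, and control cells had 87.8 at day 4 and 445 at day 0.

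Small nucleolar RNA (snoRNA) genes, which guide chemical marks on ribosomal RNA and mostly lie in introns of other genes, were lower at day 4 as a class; the class was looked at after the values of single members were seen. Snord13 had an intensity of 116 at day 4 and 624 at day 0 in the Chd4 line (5.39-fold lower). Mbd3-knockdown cells had 214 at day 4 and 260 at day 0, and control cells had 430 at day 4 and 232 at day 0. Snora15 had 62.3 at day 4 and 325 at day 0 (5.22-fold lower). Mbd3-knockdown cells had 124 at day 4 and 261 at day 0, and control cells had 303 at day 4 and 229 at day 0. For both genes the Chd4 line had the lowest array of the 6 at day 4 and the highest at day 0. Snora16a, Snora34, Snord1b, Snord22 and Snord58b were also among the 15 lowest genes, at 3.59-fold to 4.38-fold lower. Of 74 snoRNA genes compared, 20 (27.0%) were at least 2-fold lower, where 1.16% of all genes were, 64 were lower at all and 0 were at least 2-fold higher; the median was -0.49. In the Mbd3 line 1 of 76 was at least 2-fold lower (median -0.21), and in the control line 0 of 75 (median 0.03). Of all genes compared, 1.1% were at least 2-fold lower in the Mbd3 line and 4.7% in the control line.

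For snoRNA genes the summed intensity was 26236 at day 4 and 41684 at day 0 in the Chd4 line. Mbd3-knockdown cells had 33436 at day 4 and 39358 at day 0, and control cells had 39604 at day 4 and 37373 at day 0. The Chd4 arrays thus hold both the lowest and the highest sum. Of the 74, 59 lie within exactly 1 measured gene by RefSeq positions, 42 such genes in all, with strand not used. The snoRNA had the lower difference of the pair in 49 of the 59, with medians of -0.44 for snoRNAs and -0.01 for the spanning genes. The spanning genes ranged from -0.42 to 1.02, 1 of them at least 2-fold higher and 0 lower. Snora16a and Snord99 (-2.13 and -1.74) lie in Snhg12, which was higher (0.41), Snora34 (-2.02) lies in Kansl2 (0.37) and Snord22 (-1.85) in Snhg1 (-0.42). In the Mbd3 line 48 of 59 were below the spanning gene, and in the control line 26. Of other short RNA classes, 2 of 5 guide RNA genes, 1 of 3 RNase P RNA genes and 1 of 5 genes annotated as small nuclear RNA that were compared were at least 2-fold lower, and 0 higher. Over all genes compared 1.16% were at least 2-fold lower, but these classes hold only 3 to 5 genes each. The Y RNA genes Rny1 (311 at day 4 and 642 at day 0) and Rny3 (39.0 at day 4 and 132 at day 0) were both lower. Without small RNA genes, 216 genes passed 2-fold upward and 128 downward.

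**Figure D4:**
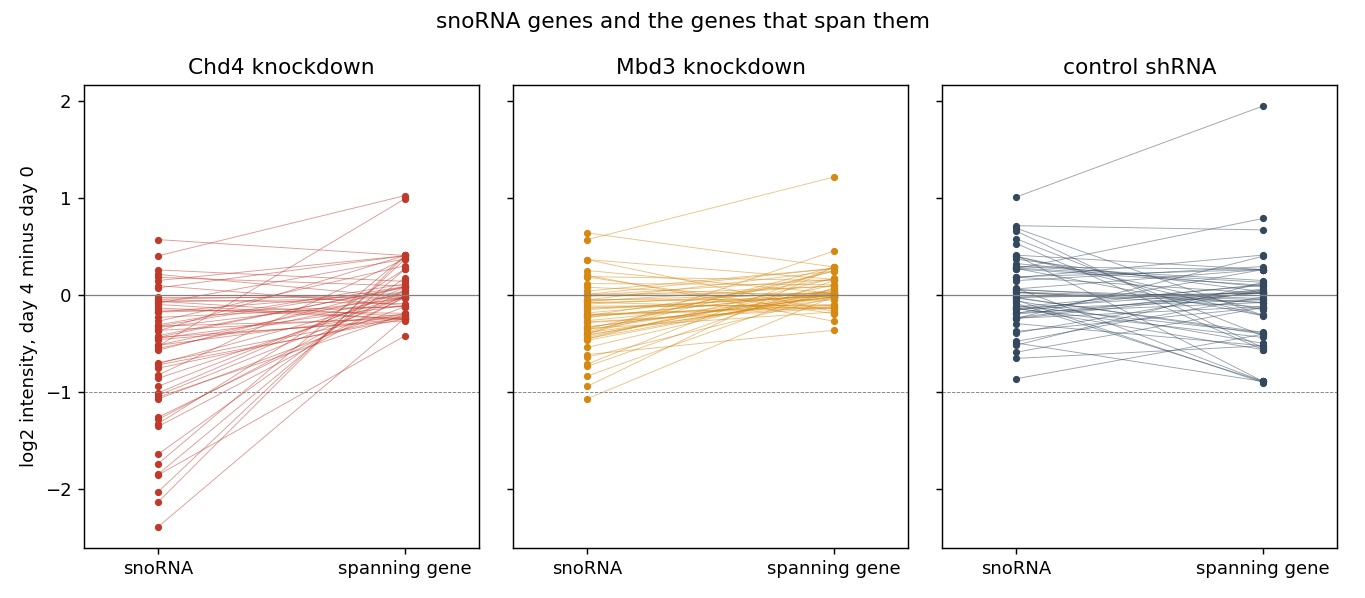
Day difference (log2 intensity, day 4 minus day 0) of 59 snoRNA genes (left of each panel) and of the gene that spans each (right), joined by lines, in the Chd4-knockdown, Mbd3-knockdown and control lines. In the Chd4 line the snoRNAs reach -2.38 while the spanning genes stay between -0.42 and 1.02; in the control line 26 of 59 snoRNAs are below their spanning gene.

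Several other genes stood at the ends of the comparison. Cyp2b23, a cytochrome P450 gene, had an intensity of 411 at day 4 and 42.1 at day 0 in Chd4-knockdown cells (9.77-fold), the largest fold with both arrays at or above the floor. Mbd3-knockdown cells had 166 at day 4 and 54.5 at day 0, and control cells had 25.3 at day 4 and 48.5 at day 0. Efhc2, which encodes a protein of ciliary microtubules, had 434 at day 4 and 58.2 at day 0 (7.46-fold). Mbd3-knockdown cells had 116 at day 4 and 41.7 at day 0, and control cells had 47.1 at day 4 and 40.7 at day 0. These genes were higher at day 4 in both knockdown lines, while in the control line 1 of the 2 arrays lay under the floor for each. Slc5a4b, a sugar transporter gene, had 394 at day 4 and 92.1 at day 0, and in control cells 33.6 at day 4 and 49.5 at day 0. Uba1y had 404 at day 4 and 96.5 at day 0, and in control cells 52.9 at day 4 and 92.9 at day 0. Pkd2l1, a cation channel gene, had 241 at day 4 and 52.9 at day 0 in the Chd4 line. C130073F10Rik (222 at day 4 and 58.3 at day 0) and Gm364 (209 at day 4 and 55.9 at day 0) were higher in the Chd4 line, by 1.93 and 1.90, and both were under the floor on both days in the control line. Among genes under the floor at day 0, 1700108F19Rik was at least 5.93-fold higher, and AV320801, Olfr307 and Gm15127 at least 2.86-fold to 3.07-fold.

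At the low end, P2rx7, an ATP-gated channel gene, had 157 at day 4 and 792 at day 0 (5.04-fold lower). Mbd3-knockdown cells had 233 at day 4 and 265 at day 0, and control cells had 76.3 at day 4 and 212 at day 0. Its day 0 array in the Chd4 line was the highest of the 6. Cltb, a clathrin light chain gene, had 97.3 at day 4 and 355 at day 0 (3.65-fold lower). Mras, of the RAS family, had 62.9 at day 4 and 218 at day 0 (3.47-fold), and S100a6, a calcium-binding protein gene, 73.6 at day 4 and 249 at day 0 (3.38-fold). All 3 were at least 2-fold lower in the other lines too. Emp1 had 45.7 at day 4 and 164 at day 0 (-1.85), but its other probe set gave -0.01. Likewise Kctd12 had 37.0 at day 4 and 128 at day 0 (at least 3.08-fold lower), with a log2 difference of -0.19 by the other. Of 22 genes with several probe sets and the chosen one past 2-fold, all probe sets had the same direction in 18 and all passed 2-fold in 4. These 4 are Mir466b-2, Mir669g, Mir669i and Mir669k, microRNA genes inside Sfmbt2 whose probe sets may share signal. No other gene of the 22 had all its probe sets past 2-fold. Serpinb6c, A2m, Mtarc2, Anxa1 and Tbx3os2 were at least 2.00-fold to 2.45-fold lower against the floor.

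Signaling lists held single genes past 2-fold. In the FGF and ERK list, Spry2, a feedback inhibitor of the pathway, had 172 at day 4 and 468 at day 0 (-1.45), and Egr1, an immediate early gene, 85.6 at day 4 and 199 at day 0 (-1.21). With Fos these were the 3 of 21 at least 2-fold lower (median -0.16), where 1.16% of all genes compared were. Smad7, which inhibits TGF-beta receptors, had 128 at day 4 and 337 at day 0 (-1.40), and Lefty2, a Nodal antagonist gene, 274 at day 4 and 573 at day 0 (-1.07). Bmp4, a signal that opposes neural fate, had 372 at day 4 and 770 at day 0 (-1.05). Nodal itself was 242 at day 4 and 234 at day 0, so its level at day 4 was near that of day 0, while in control cells it was 88.6 at day 4 and 334 at day 0. The Nodal list median was -0.14, against -0.12 in the Mbd3 line and -1.33 in the control line. In the WNT list 2 of 24 were at least 2-fold higher, where 1.7% of all genes compared were. These were Lef1 and the ligand gene Wnt8a (123 at day 4 and 58.7 at day 0). The antagonist gene Sfrp1 was 227 at day 4 and 434 at day 0 (-0.93). Mbd3-knockdown cells had 443 at day 4 and 184 at day 0, and control cells had 2744 at day 4 and 383 at day 0.

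Of 23 genes of G1 control 2 passed 2-fold, 1 each way, and of 35 replication and mitosis genes 1, beside 2.86% of all genes compared. Ccnd2, which encodes cyclin D2, had 119 at day 4 and 48.4 at day 0 (1.29). Mbd3-knockdown cells had 180 at day 4 and 60.6 at day 0, and control cells had 1858 at day 4 and 306 at day 0. It was higher at day 4 in each line, with both Chd4 arrays below both control arrays. Cdkn1b, which encodes the inhibitor p27, had 84.8 at day 4 and 177 at day 0 (-1.06). Mbd3-knockdown cells had 142 at day 4 and 108 at day 0, and control cells had 236 at day 4 and 98.1 at day 0. The replication gene was Pold2, a subunit of DNA polymerase delta, with 363 at day 4 and 153 at day 0 (1.24). Mbd3-knockdown cells had 364 at day 4 and 318 at day 0, and control cells had 471 at day 4 and 498 at day 0. Septin2, a cytoskeletal gene named here after its values were seen, had the same shape, with 476 at day 4 and 165 at day 0 in the Chd4 line (1.52). Mbd3-knockdown cells had 511 at day 4 and 471 at day 0, and control cells had 640 at day 4 and 537 at day 0. For both genes the Chd4 day 0 array was the lowest of the 6, as it was for Chd4.

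Most stress and metabolic lists had counts near the background of 2.86% past 2-fold. Of 38 p53 target genes 0 passed 2-fold, and the median was 0.08, against -0.30 in the Mbd3 line and -0.59 in the control line. Cdkn1a, the cell cycle inhibitor p21, had 589 at day 4 and 690 at day 0, Mdm2, the ligase of p53, had 738 at day 4 and 786 at day 0, and Sesn1, the highest, had 152 at day 4 and 79.7 at day 0 (0.94). Apoptosis genes gave 0 of 23 past 2-fold and the integrated stress response 0 of 25 (median -0.19). Its factor Atf4 had 200 at day 4 and 370 at day 0, and Nupr1, a stress-induced cofactor gene, had 70.4 at day 4 and 132 at day 0. Txnip, an inhibitor of thioredoxin and of glucose uptake, had 265 at day 4 and 751 at day 0 (-1.50). Its relative Arrdc4 had 114 at day 4 and 230 at day 0 (-1.02), and these were the 2 of 12 genes of metallothionein and oxidative stress at least 2-fold lower, where 1.16% of all genes compared were (median -0.48). In the lipid list Fads2, a fatty acid desaturase, was the 1 of 23 past 2-fold, with 865 at day 4 and 391 at day 0 (1.15), with a median of 0.28, against 0.45 in the Mbd3 line and 0.82 in the control line. Xaf1 was the 1 of 16 interferon genes past 2-fold, with 54.2 at day 4 and 147 at day 0. Among 16 housekeeping genes 0 passed 2-fold, with a median of -0.10. Actb had 927 at day 4 and 901 at day 0, Rplp0 had 429 at day 4 and 729 at day 0 and Polr2a, the largest subunit of RNA polymerase II, had 803 at day 4 and 1585 at day 0 (-0.98).

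The same day difference was then set beside those of the other lines, which share no array with it. Mbd3-knockdown cells had 213 genes (1.6%) at least 2-fold higher and 147 (1.1%) lower, together 360 (2.7%) of 13348 compared. Control cells had 1125 (8.13%) and 650 (4.7%), together 1775 (12.8%) of 13831. Of the 228 genes higher in the Chd4 line, 83 were also higher in the Mbd3 line, which is 36.4% of the 228 and 39.0% of the 213. With the control line 62 were shared, which is 27.2% of the 228 and 5.51% of the 1125. Of the 155 lower genes, 52 were shared with the Mbd3 line (33.5% of the 155 and 35.4% of the 147) and 56 with the control line (36.1% and 8.62% of the 650). The other 128 higher genes (56.1%) and 82 lower genes (52.9%) passed 2-fold in the same direction in neither other line. Of all genes compared, 1.6% were at least 2-fold higher in the Mbd3 line and 8.13% in the control line, and 1.1% and 4.7% lower. Passing in neither line is therefore usual for any gene and does not mark these as particular to the Chd4 line.

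Smaller differences were then counted by direction alone. Of the 228 higher genes, 211 (92.5%) were higher at day 4 in the Mbd3 line and 131 (57.5%) in the control line. Their median differences were 1.28, 0.79 and 0.17 in the Chd4, Mbd3 and control lines. Of protein-coding genes compared in each line, 5582 of 12399 were higher in the Mbd3 line and 6512 of 12849 in the control line. Of the 155 lower genes, 147 (94.8%) were lower in the Mbd3 line and 114 (73.5%) in the control line. Of the same protein-coding genes, 6817 and 6337 were lower in these 2 lines. Medians of the 155 genes were -1.24, -0.77 and -0.59 in the Chd4, Mbd3 and control lines. The genes were chosen by their size in the Chd4 line, so the medians of the other lines are not comparable with it in size.

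A small set of genes passed 2-fold in opposite directions in Chd4-knockdown and control cells, 19 higher and 7 lower in the Chd4 line; 0 genes did so between the Chd4 and Mbd3 lines. The 19 are 8.33% of the 228, beside 4.7% of all genes at least 2-fold lower in the control line. Sfmbt2 and 4 microRNA genes inside it are among the 19, and the probe sets of these microRNA genes may share signal. The 19 are thus not independent, and 8.33% may count the same locus repeatedly. The 7 are 4.52% of the 155, beside 8.13% of all genes at least 2-fold higher in that line, so they are no more than the background. Of the 19, Ccno and Zfp985 were under the floor in control cells at day 4, where the bound is at least 1.75-fold and 1.86-fold. Besides Dazl, Sfmbt2 and 4 of its microRNA genes, the higher ones include Epas1, which encodes the hypoxia-inducible factor HIF-2α. It had 350 at day 4 and 151 at day 0 in the Chd4 line. Mbd3-knockdown cells had 261 at day 4 and 145 at day 0, and control cells had 58.0 at day 4 and 346 at day 0. Folr1, a folate receptor gene, had 413 at day 4 and 166 at day 0 in the Chd4 line. Mbd3-knockdown cells had 289 at day 4 and 299 at day 0, and control cells had 67.5 at day 4 and 324 at day 0. Dpp4, a dipeptidyl peptidase gene, had 337 at day 4 and 126 at day 0 in the Chd4 line. Mbd3-knockdown cells had 169 at day 4 and 111 at day 0, and control cells had 44.9 at day 4 and 171 at day 0. In these genes the Chd4 line at day 4 had the highest array of the 6 and the control line at day 4 the lowest. Among the lower ones are Bnip3, Vegfa, Ndufa4l2 and Cdkn1b, the Y RNA genes and Dap, with 80.6 at day 4 and 170 at day 0 in the Chd4 line. Mbd3-knockdown cells had 130 at day 4 and 107 at day 0, and control cells had 165 at day 4 and 61.3 at day 0. With 1 array per group, the difference between lines was not tested.

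**Figure D5:**
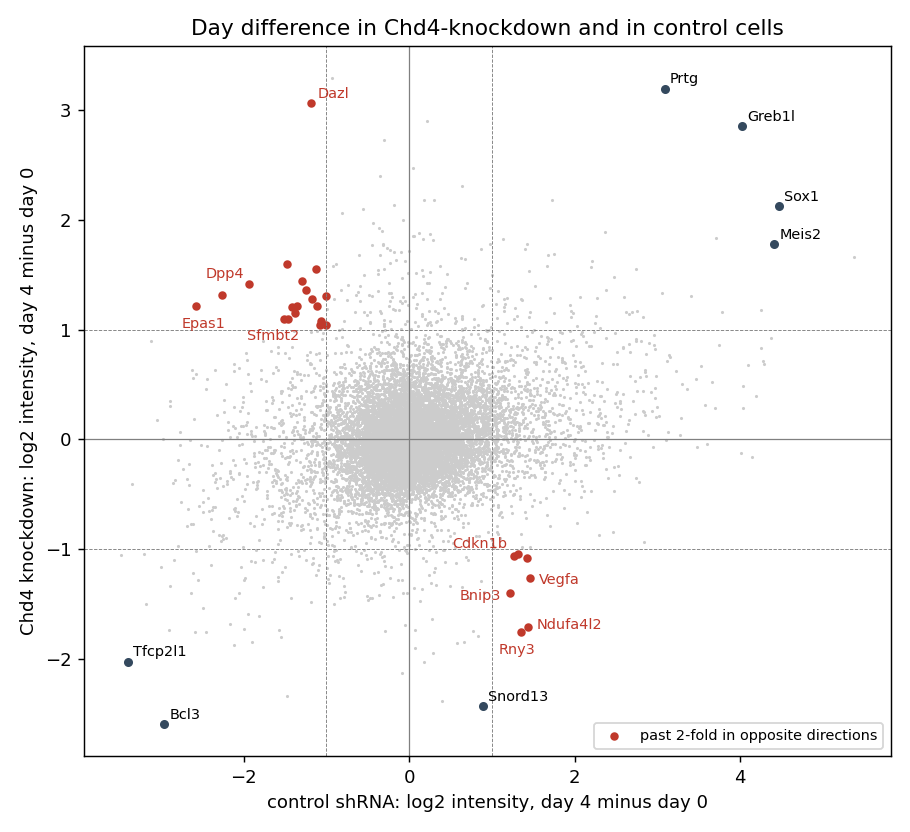
Day difference (log2 intensity, day 4 minus day 0) in Chd4-knockdown cells (vertical) against control cells (horizontal) for the genes compared in the Chd4 line; 1 point is 1 gene, and dashed lines mark 2-fold. The 26 genes past 2-fold in opposite directions are in red, and Prtg, Greb1l, Sox1, Meis2, Tfcp2l1 and Bcl3 lie past 2-fold in the same direction in both lines.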

How the data were processed

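Total RNA of 6 groups was hybridized to 1 Mouse Gene 2.0 ST array each. GeneSpring GX 12.6.1 is the authors' software per the labels' design text. The submitters' processing notes name RMA, which subtracts background, equalizes the arrays by quantiles and summarizes probes. What the authors deposited are linear intensities per probe set; the lowest on the Chd4 arrays were 17.4 at day 4 and 17.6 at day 0. A constant added upstream would make folds of dim genes smaller, so 16 was subtracted in an alternative. The genome build of the probe sets was not given in the sources used here. The number of arrays limits the precision.

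Values were log2-transformed without rescaling. Of 34351 probe sets, 1814 with several symbols and 9016 with none were not used; symbols were updated through RefSeq (GRCm38.p6), which held 23328 of the 23521 probe sets with 1 symbol. Of 22180 genes, 1082 had several probe sets, and the one with the highest mean log2 over the 6 arrays stands for the gene. A gene was compared where its brighter array reached its own median, and 2-fold means a log2 difference of at least 1 in size. Gene positions and promoter windows (250 bases before to 50 after the start), and mature microRNAs, are from RefSeq tables. The members and lists were chosen with earlier results of these data known; of 872 entries in 38 lists, 789 matched exactly, 5 by synonym and 78 are not analysed here.

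Named genes are the 15 highest and 15 lowest with both arrays at or above the floor, the 8 largest bounds each way, up to 6 of the largest and the first 2 of each list, up to 8 each way past 2-fold in opposite directions in the Chd4 and control lines, up to 8 each way furthest from the mean of the other lines, and Chd4 and Mbd3. Not every gene the rule names is reported here, and other genes were chosen after their values were seen. The alternatives were: 16 subtracted, no filter, a filter on both arrays, centring, quantile normalization again, every probe set or their median, intensities under the floor set to it and, chosen after seeing the data, no small RNA genes. The counting was tested on simulated arrays with large changes planted in bright genes and little noise. That test does not cover dim genes or differences near 2-fold. Python 3.11.15, numpy 2.4.6, pandas 2.3.3 and matplotlib 3.10.9 were used.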

Additional observations from a re-analysis of the deposited data

Results flagged for a closer look

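With 1 array per group, genes and lists that moved in opposite directions between the days in the Chd4-knockdown and control lines are listed here; the difference between the lines was not tested. Log2 differences of day 4 minus day 0 are given for the Chd4 line and then the control line. Among genes at least 2-fold higher in the Chd4 line and lower in the control line, Dazl had 3.06 and -1.19, Arl14epl 1.60 and -1.48, Mir669g 1.55 and -1.13, Pramel19 1.44 and -1.30, Dpp4 1.42 and -1.93, and Mir669j 1.36 and -1.25. Folr1 had 1.31 and -2.26, Ccno 1.31 and -1.01, Enpp3 1.28 and -1.18, Mup6 1.22 and -1.36, Mir669k 1.22 and -1.11, Epas1 1.21 and -2.58, and Zfp985 1.21 and -1.41. The smallest of these differences were those of Aim2 (1.15 and -1.38), Sfmbt2 (1.10 and -1.52), Mir669i (1.10 and -1.46), Slc5a11 (1.07 and -1.07), Clgn (1.04 and -1.08) and Gk5 (1.04 and -1.004). At day 4 in control cells Ccno, Zfp985 and Slc5a11 were under the floor, which bounds their control difference at 1.75-fold, 1.86-fold and 2.01-fold lower. Ccno was also under it at day 0 in the Chd4 line, where it was at least 2.19-fold higher.

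Among genes at least 2-fold lower in the Chd4 line and higher in the control line, Rny3 had -1.76 and 1.35, Ndufa4l2 -1.71 and 1.44, Bnip3 -1.39 and 1.22, Vegfa -1.26 and 1.46, Dap -1.08 and 1.43, Cdkn1b -1.06 and 1.27, and Rny1 -1.04 and 1.32. Rny3 was under the floor at day 4 in the Chd4 line, so it was at least 3.18-fold lower. These 7 genes are 4.52% of the genes lower in the Chd4 line, where 8.13% of all genes were at least 2-fold higher in the control line. The germline list had medians of 0.41 and -0.51, and the glycolysis and hypoxia list had medians of -0.54 and 0.43. With intensities under the floor set to it, the germline medians were 0.12 and -0.21, the first below the median size of a difference, 0.197. The glycolysis and hypoxia medians were then -0.54 and 0.40.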

How the results depend on the processing

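With 16 subtracted before log2, 404 genes passed 2-fold upward and 238 downward in the Chd4 line. The higher genes shared with the Mbd3 line then numbered 158 and with the control line 137, with 38 the opposite way in the control line, and the lower genes 84, 87 and 15. Of the single gene values, 14 then also passed 2-fold, among them Lin28b, Sesn1, Nupr1 and Pfkl, and 19 more moved by over the median size of a difference. The fibroblast median moved to -0.43, and the germline median to 0.12 with intensities under the floor set to it. Under the other alternatives the counts stayed between 175 and 250 higher and between 128 and 167 lower, within 1.5 times of 228 and 155. By the median over probe sets Emp1 (-0.93), Kctd12 (-0.99), Gbx2 (0.82), Socs3 (-0.91) and Sox4 (0.79) no longer passed 2-fold, nor did Klf2 (-0.98) after quantile normalization again; the other named genes past 2-fold stayed past it, and no named gene or list changed sign past the threshold. No paired analysis was possible because each group has 1 array, and leaving out an array leaves no comparison. Of probe sets on the Chd4 day 4 array, 50.7% lie under the floor, where a difference is only a bound.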
